A study of Homo sapiens with 9 samples.

Results

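The genes described here are 10 members of the aryl hydrocarbon receptor pathway and of the xenobiotic enzymes around it, taken by symbol from the 16366 genes of the deposited table: AHR, ARNT, AHRR, TIPARP, CYP1A1, CYP1B1, CYP2S1, CYP4F3, CYP4F11 and ALDH3A1. All 10 were listed, and 9 had enough counts to be tested among 12470 genes. They were measured by poly(A) RNA sequencing in Cal-27, a human line of tongue squamous carcinoma cells labelled wild type in every sample and grown in high-glucose DMEM with fetal bovine serum. One group was kept for 48 h with CAF exosomes, those of cancer-associated fibroblasts, and another for the same time with exosomes labelled hOMF, an abbreviation left unexplained by the labels. The remaining group is labelled normal control. The time of 48 h is given for the exosome groups only. The sources used here do not say whether control cells received a vehicle or whether the serum was freed of vesicles. Exosomes are small membrane vesicles that carry protein, lipid and RNA between cells. Each group held 3 libraries, all of 1 cell line, and no label says whether they came from separate cultures. The p-values therefore rest on the spread among these libraries alone, and that spread may be technical.

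The aryl hydrocarbon receptor, encoded by AHR, is a transcription factor that waits in the cytoplasm in a complex with the chaperone HSP90. When a planar aromatic ligand binds it, it enters the nucleus, pairs with ARNT and binds DNA at xenobiotic response elements. Its textbook targets include the cytochrome P450 genes CYP1A1 and CYP1B1, whose enzymes oxidise polycyclic aromatic compounds, the aldehyde dehydrogenase gene ALDH3A1, and AHRR and TIPARP, whose products hold the receptor back. Oral and other squamous epithelia meet such ligands in smoke and food, and the receptor also takes part in keratinocyte differentiation.

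The stretches before the start sites of 4 of these genes are shown because they hold, or lack, the core letters of the response element next to genes that did or did not change. The core is GCGTG, and its matches on either strand are in capitals (CACGC is the core on the other strand). Each is the 250 bases before a RefSeq start site on GRCh38.p14, 5′ to 3′ on the strand of the gene.
CYP1A1, chr15:74725529-74725778, minus strand: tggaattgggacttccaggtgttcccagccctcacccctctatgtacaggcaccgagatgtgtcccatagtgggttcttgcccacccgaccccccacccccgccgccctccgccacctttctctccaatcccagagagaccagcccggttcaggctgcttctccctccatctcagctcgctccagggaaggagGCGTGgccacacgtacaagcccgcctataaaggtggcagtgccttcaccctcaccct
AHRR, chr5:321464-321713, plus strand: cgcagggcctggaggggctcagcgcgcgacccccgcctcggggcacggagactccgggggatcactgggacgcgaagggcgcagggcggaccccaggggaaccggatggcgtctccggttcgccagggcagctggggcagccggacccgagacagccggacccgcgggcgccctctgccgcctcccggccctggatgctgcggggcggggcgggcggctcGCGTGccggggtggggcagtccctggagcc
TIPARP, chr3:156674340-156674589, plus strand: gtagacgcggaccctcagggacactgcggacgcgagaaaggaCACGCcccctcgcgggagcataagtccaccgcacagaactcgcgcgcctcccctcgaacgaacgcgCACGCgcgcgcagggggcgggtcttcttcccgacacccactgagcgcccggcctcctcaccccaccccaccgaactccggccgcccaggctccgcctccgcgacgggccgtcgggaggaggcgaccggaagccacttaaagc
CYP4F11, chr19:15934868-15935117, minus strand: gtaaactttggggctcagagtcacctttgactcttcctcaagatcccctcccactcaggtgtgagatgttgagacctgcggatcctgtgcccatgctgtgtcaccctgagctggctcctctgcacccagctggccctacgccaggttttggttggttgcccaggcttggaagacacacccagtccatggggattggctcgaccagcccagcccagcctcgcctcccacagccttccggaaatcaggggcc
RefSeq start windows of 300 bases, 250 before and 50 after the start, matched 8 of the 10 genes, and CYP1B1 and ALDH3A1 had none. The core was in 5 of the 12 windows of these genes and in 36.5% of all 35116 windows. The 5 windows belong to CYP1A1, AHR, TIPARP and AHRR, and the last of these has the core at both of its start sites. TIPARP has 3 start windows, with the core in the first only, and CYP4F11 has 2, both without it. In CYP1A1 the core begins 57 bases before the start. The longer form TNGCGTG was in 5.51% of all windows and in 1 window here, the first start of AHRR, where its core begins 30 bases before the start. The core is also 1 of the forms of the hypoxia response element, whose other form, ACGTG, was in 21.4% of all windows and here in those of CYP1A1 and AHR. These matches describe the letters of the windows only, and sequence outside the windows was not searched.

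The libraries held 11185672 to 12779101 estimated counts. Levels are in CPM (each count scaled to a common library size, with TMM factors). Changes are on the log2 scale, with a standard error (SE), and come from the quasi-likelihood test of edgeR fitted to the 9 libraries together. A gene is called to rise or fall where its Benjamini-Hochberg adjusted p over all tested genes was under 0.05. For the squamous label, 14 epithelial markers summed to between 5698.2 and 8859.6 CPM. In control EGFR (mean 1901.7 CPM) and KRT5 (747.9 CPM) were high and KRT14 (9.64 CPM) low, and 1 of the 14 was at 0 in control replicate 2. The 11 fibroblast markers in the table summed to between 232.9 and 319.8 CPM. Of the fibroblast markers COL5A1 (193.5 to 267.5 CPM) and COL1A1 (33.2 to 50.5 CPM) made up most of the sum, COL1A2, LUM, PDGFRB and TWIST1 were low but detected in every library, and COL3A1, DCN, FAP, THY1 and POSTN lay between 0 and 0.16 CPM. Control replicate 3 stood apart. It held 126 genes with at least 50 counts and over 2 times the level of any other library, against 0 or 1 such gene in each of the other 8 libraries. Among them (picked out once their values were known) were the neutrophil granule genes ELANE (51.6 CPM), AZU1 (37.5), PRTN3 (31.9) and CTSG (31.4), the blood transcription factor gene SPI1 (15.9) and the leukocyte marker PTPRC (7.5). None of these 6 passed 0.273 CPM in another library. The 5 leukocyte markers in the table summed to 50.1 CPM there and to between 36.1 and 43.6 CPM elsewhere, mostly from CD68, which many cell types express. AHRR was the only gene of the 10 among the 126, so its results are given with and without that library, as are those of other genes where it matters.

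**Figure D1:**
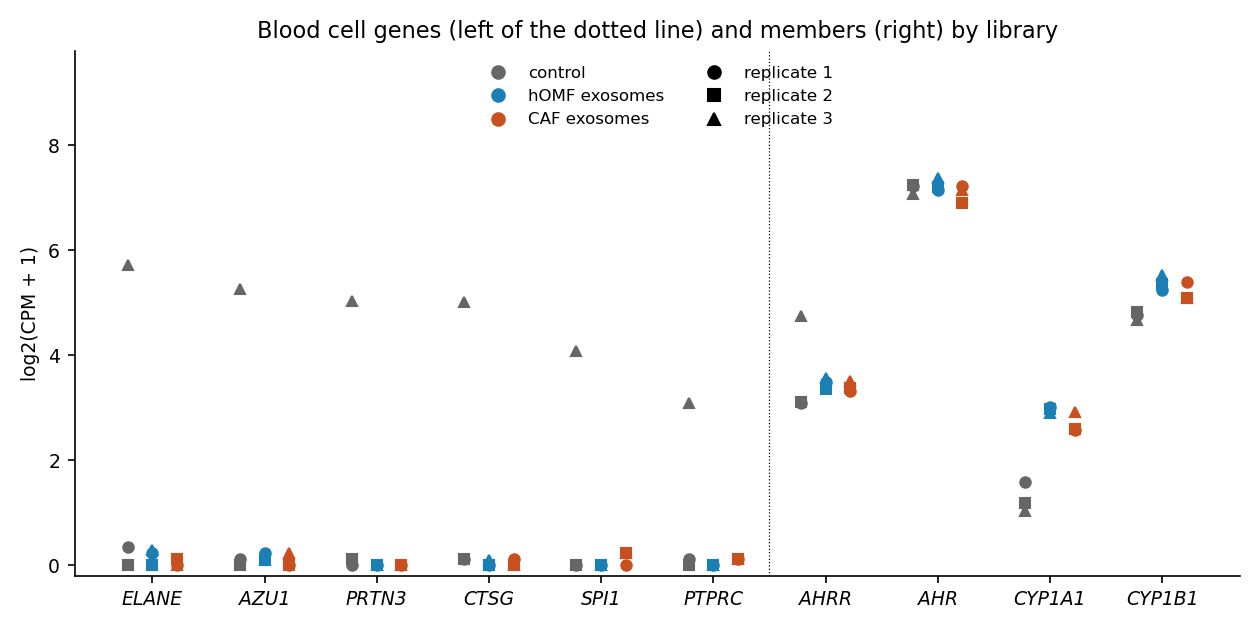
Level of 6 blood cell genes and of AHRR, AHR, CYP1A1 and CYP1B1 in each of the 9 libraries, as log2(CPM + 1); colour gives the group and symbol the replicate. Control replicate 3 (grey triangle) is alone in holding the 6 blood cell genes and is the highest library for AHRR, at 25.9 CPM, but not for the other 3 members.

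The receptor and its partner were not called in either comparison with control. AHR stood at 149, 151 and 134 CPM in control replicates 1 to 3, at 140, 147 and 164 CPM with hOMF exosomes and at 149, 119 and 141 CPM with CAF exosomes, so the groups overlapped. Its log2 change was 0.06 (SE 0.09, adjusted p = 0.681) with hOMF exosomes and -0.08 (SE 0.09, adjusted p = 0.547) with CAF exosomes. The 95% intervals, -0.13 to 0.25 and -0.28 to 0.11, leave room for changes of up to 1.19-fold up and down to 0.826-fold. ARNT, the partner that the receptor needs to bind DNA, stood at 40.2, 40.3 and 44.5 CPM in control, at 45.7, 43.2 and 42.9 CPM with hOMF exosomes and at 41.1, 40.7 and 47 CPM with CAF exosomes. All 9 values lie within a narrow span, and its changes were 0.07 and 0.04 (SE 0.08 each, adjusted p = 0.544 and 0.756).

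TIPARP, an ADP-ribosyltransferase that modifies the receptor and is itself a receptor target, was the most abundant of the 10 and was not called. It stood at 178, 154 and 142 CPM in control, at 142, 167 and 174 CPM with hOMF exosomes and at 181, 151 and 172 CPM with CAF exosomes. The 3 groups cover nearly the same span, and the changes were 0.03 (SE 0.10, adjusted p = 0.855) and 0.09 (SE 0.10, adjusted p = 0.561).

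The repressor gene AHRR, whose product competes with the receptor for ARNT, turned on 1 library. It stood at 7.45 and 7.68 CPM in control replicates 1 and 2 but at 25.9 CPM in control replicate 3. With hOMF exosomes it stood at 10.2, 9.18 and 10.8 CPM, and with CAF exosomes at 8.92, 9.36 and 10.4 CPM, so each exosome library lay above control replicates 1 and 2 and below control replicate 3. Over all libraries the change was -0.46 (SE 0.33, adjusted p = 0.336) with hOMF exosomes and -0.54 (SE 0.34, adjusted p = 0.284) with CAF exosomes. The sign turned without control replicate 3, to 0.41 (SE 0.15, adjusted p = 0.063) and 0.34 (SE 0.15, adjusted p = 0.144), and neither was called. The blood cell genes named above moved with AHRR in that library, and their part in its value was not tested. PDCD6, whose exons share 244 bases with those of AHRR on the same strand, was at 116 CPM in that library and between 99.1 and 123 CPM in the others.

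**Figure D2:**
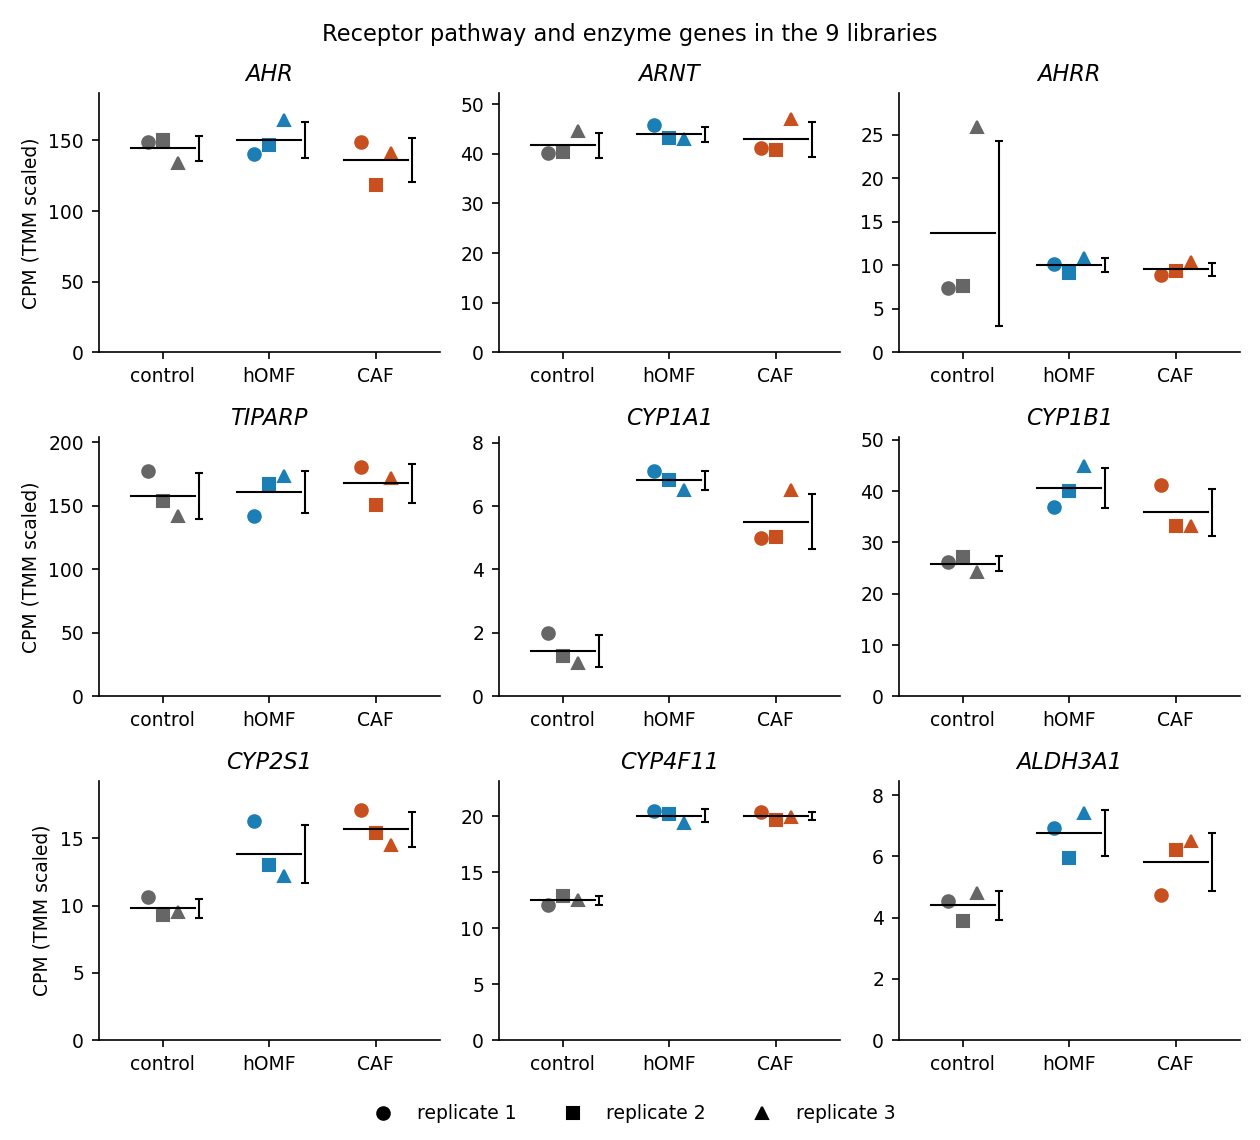
CPM of the 9 tested genes in each library, by group; symbols give the replicate, horizontal lines the mean and bars the SD over 3 libraries, and each axis starts at 0. CYP1A1, CYP1B1, CYP2S1 and CYP4F11 are higher in all 6 exosome libraries than in any control library, while AHR, ARNT and TIPARP overlap between groups.

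CYP1A1, the classical target gene of the receptor, had the largest change of the 10 with both kinds of exosome. Its expected counts were 22, 14 and 13 in the control libraries, which is 2.00, 1.26 and 1.04 CPM. With hOMF exosomes they were 82, 78 and 85, or 7.11, 6.82 and 6.50 CPM, and with CAF exosomes 56, 59 and 78, or 4.99, 5.02 and 6.51 CPM. Every exosome library was thus well above the highest control library. The gene rose by 2.25 on the log2 scale with hOMF exosomes (SE 0.23, adjusted p = 1.71e-05), a 4.76-fold change with a 95% interval of 3.40 to 6.68. With CAF exosomes it rose by 1.95 (SE 0.24, adjusted p = 9.49e-05), a 3.86-fold change with an interval of 2.73 to 5.47. Few control reads stand behind both values, and control replicate 3 was the lowest of the 3. Without that library the changes were 2.05 and 1.75 (adjusted p = 6.26e-05 and 0.000499).

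CYP1A2, the neighbouring gene and close relative of CYP1A1 on chromosome 15, had 3 counts in CAF exosome replicate 1 and 0 in the other 8 libraries. A count of 0 allows up to 3 counts in a library, between 0.229 and 0.273 CPM, for counting error only. A difference of CYP1A2 between groups was not detectable at this depth.

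CYP1B1, which oxidises steroids and polycyclic compounds and is the more abundant CYP1 gene here, changed less. It stood at 26.2, 27.2 and 24.3 CPM in control, at 37, 40 and 44.9 CPM with hOMF exosomes and at 41.2, 33.2 and 33.2 CPM with CAF exosomes, without overlap between control and either exosome group. It rose by 0.65 (SE 0.10, adjusted p = 0.000406), or 1.57-fold, with hOMF exosomes and by 0.47 (SE 0.10, adjusted p = 0.00617), or 1.38-fold, with CAF exosomes. CYP1B1 is also known as a gene of fibroblasts, the source named for the CAF exosomes. The 11 fibroblast markers in the table summed to 233 to 305 CPM in control, 277 to 319 CPM with hOMF exosomes and 273 to 320 CPM with CAF exosomes. Of the 6 markers tested, LUM, a matrix proteoglycan gene, rose by 1.06 with CAF and by 0.94 with hOMF exosomes, the latter lost without hOMF exosome replicate 2, and the other 5 were not called. The part of these transcripts in the level of CYP1B1 was not tested, and in bulk samples a change in the cells present and a change of RNA per cell cannot be told apart.

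Of the P450 enzymes outside the CYP1 family, CYP4F11 and CYP2S1 rose with both kinds of exosome. CYP4F11, an omega-hydroxylase of long-chain fatty acids and vitamin K that also acts on drugs, stood at 12.1, 12.9 and 12.5 CPM in control, 20.5, 20.2 and 19.4 CPM with hOMF exosomes and 20.4, 19.7 and 19.9 CPM with CAF exosomes. The spread within each group was small beside the gap between them. The gene rose 1.60-fold in both comparisons, 0.68 on the log2 scale (SE 0.09), with adjusted p = 0.000123 for hOMF and 0.000217 for CAF exosomes. Its close relative CYP4F3, which inactivates leukotriene B4 in neutrophils, had 1 count in all, in control replicate 3, the library that held the neutrophil granule genes, and was not tested. The other relatives CYP4F2 and CYP4F12 had 6 and 1 counts over all libraries, so the reads of this family were assigned almost wholly to CYP4F11. All 10 genes had whole counts in all 9 libraries, to within 0.001, although the estimation shares reads between similar genes.

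CYP2S1, an extrahepatic P450 found in epithelia and reported as inducible through the receptor, stood at 10.6, 9.30 and 9.49 CPM in control, 16.3, 13 and 12.2 CPM with hOMF exosomes and 17.1, 15.4 and 14.5 CPM with CAF exosomes. All 6 exosome libraries were above the control libraries. It rose by 0.68 with CAF exosomes (SE 0.13, adjusted p = 0.00253) and by 0.49 with hOMF exosomes (SE 0.13, adjusted p = 0.0131). The call with hOMF exosomes was lost without hOMF exosome replicate 1 (0.36, adjusted p = 0.0698) or without control replicate 2 (0.46, adjusted p = 0.0518).

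ALDH3A1, an aldehyde dehydrogenase that clears aldehydes of lipid peroxidation, rose with hOMF exosomes. It stood at 4.55, 3.88 and 4.79 CPM in control and at 6.94, 5.95 and 7.41 CPM with hOMF exosomes, a rise of 0.62 (SE 0.17, adjusted p = 0.018). With CAF exosomes it stood at 4.73, 6.21 and 6.51 CPM, where replicate 1 lay within the control range, and the change of 0.40 (SE 0.18, adjusted p = 0.129) was not called. The call with hOMF exosomes was lost without control replicate 2 (0.54, adjusted p = 0.0735), hOMF exosome replicate 1 (0.60, adjusted p = 0.051) or hOMF exosome replicate 3 (0.55, adjusted p = 0.0584).

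Counted together, 4 of the 9 tested genes rose with CAF exosomes and 0 fell, where 9.51% of all tested genes were called higher and 8.64% lower. With hOMF exosomes 5 rose and 0 fell, against 11.8% of all tested genes called higher and 11.4% lower. Every exosome library lay above every control library for the same 4 genes with CAF exosomes and the same 5 with hOMF exosomes, as it did for 18.0% and 20.2% of all tested genes. The median log2 change of the 9 was 0.40 with CAF and 0.49 with hOMF exosomes, and that of all tested genes -0.01 and 0.00. The counts were again 4 and 5 without control replicate 3, against 5.91% and 7.94% of all genes called higher. Both comparisons use the same control libraries, so the second is no independent repeat of the first. The members were chosen with earlier results of these data known, so their counts and medians beside those of all genes are no test of the group.

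**Figure D3:**
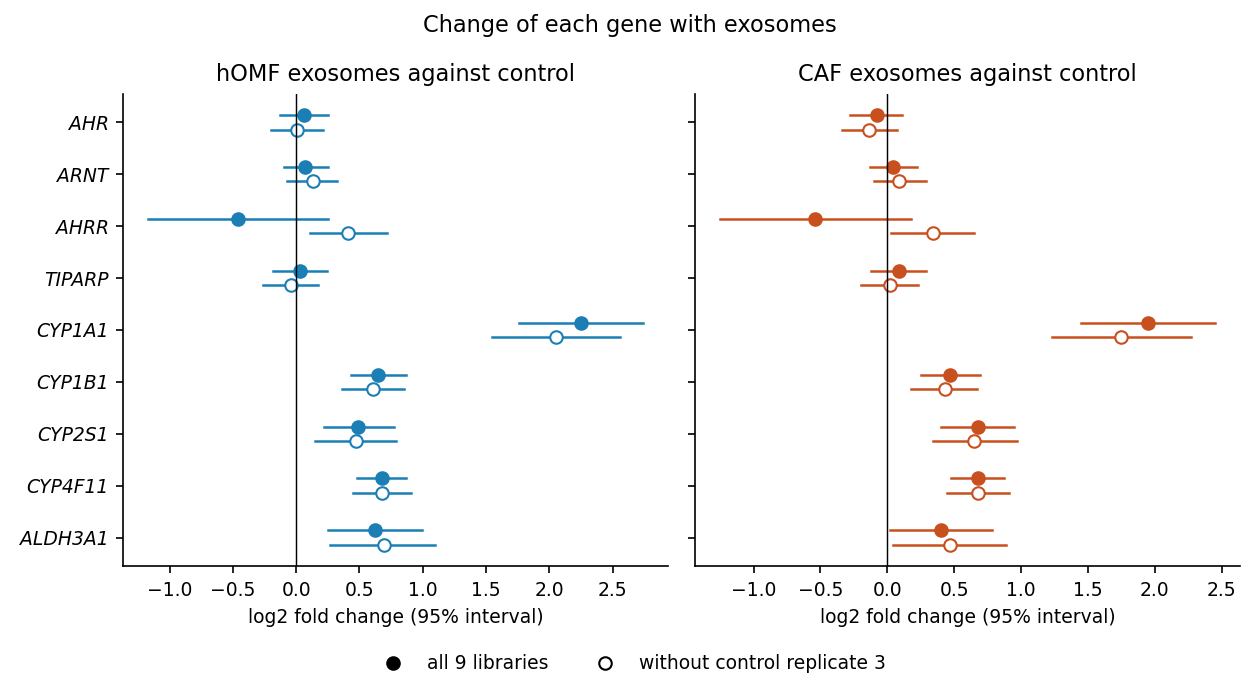
Log2 fold change of each tested gene with its 95% interval, for hOMF exosomes (left) and CAF exosomes (right) against control; filled points use all 9 libraries and open points leave out control replicate 3. CYP1A1 lies farthest to the right, at 2.25 and 1.95, and AHRR is the gene whose point crosses 0 clearly when the library is left out, from -0.46 to 0.41 and from -0.54 to 0.34.

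CAF and hOMF exosomes were compared directly to ask whether the source of the exosomes made a difference for these genes. None of the 9 was called by edgeR, none had an unadjusted p under 0.05, and DESeq2 and limma-voom also called 0. Across all genes 0.0160% were called in this comparison, and 947 had an unadjusted p under 0.05. None of the 9 separated the exosome groups without overlap, where 13.7% of all tested genes did so in either direction. CYP1A1 stood at 5.51 ± 0.867 CPM (SD, n = 3) with CAF and 6.81 ± 0.308 CPM with hOMF exosomes, a difference of -0.30 on the log2 scale with a 95% interval of -0.70 to 0.09 (adjusted p = 0.758). The interval for CYP1B1 was -0.39 to 0.03, for CYP2S1 -0.08 to 0.44 and for ALDH3A1 -0.57 to 0.14. CYP4F11 had the tightest bound among the genes that rose, 20.0 ± 0.385 against 20.0 ± 0.549 CPM, with an interval of -0.19 to 0.18. The call of ALDH3A1 with hOMF exosomes alone therefore does not show a difference between the sources, since the direct test gave an adjusted p = 0.828.

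Levels between genes were compared per transcript length, in FPKM, the authors' fragments per length of transcript and depth. In control the order of the means was TIPARP (43.1), AHR (23.7), ARNT (10), CYP1B1 (5.20), CYP4F11 (4.43), CYP2S1 (4.11), ALDH3A1 (3.03), AHRR (2.51), CYP1A1 (0.603) and CYP4F3 (0.00667). Neighbours in this order were separated in all 3 libraries, except that CYP4F11 overlapped CYP2S1 and ALDH3A1 overlapped AHRR. With hOMF exosomes CYP1A1 (2.98) stood above AHRR (1.92), without overlap, and with CAF exosomes it did so too (2.36 against 1.79). TIPARP, AHR and ARNT thus stood above the enzymes in every group, and CYP1A1 had the lowest mean of the tested genes in control only.

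**Figure D4:**
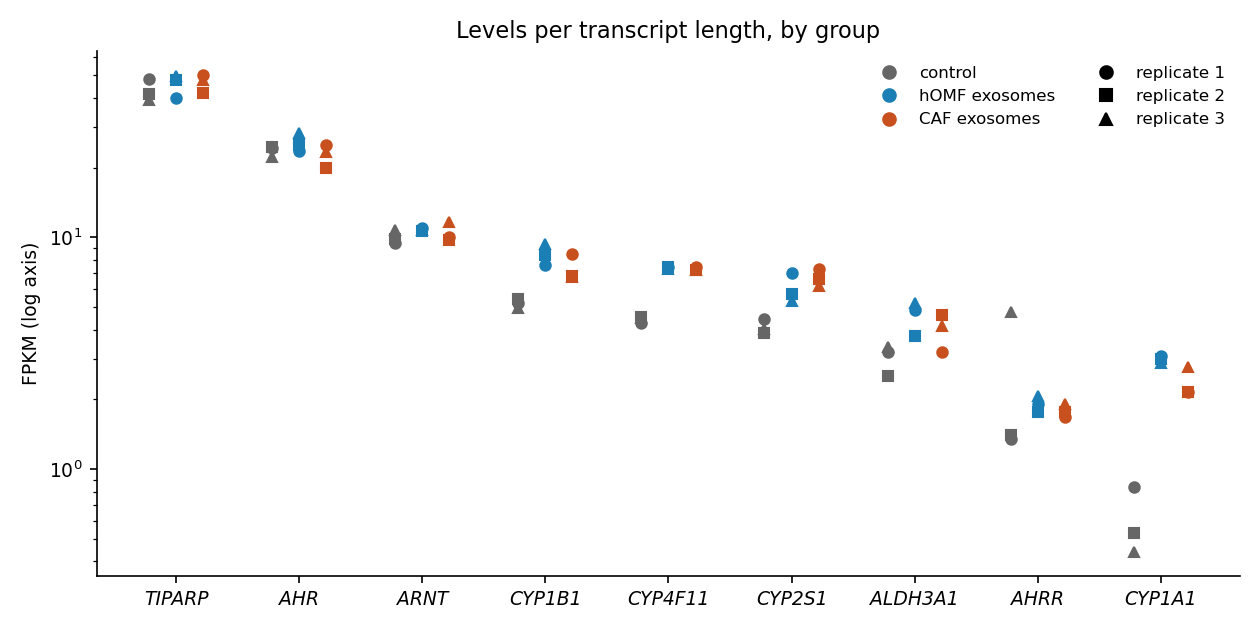
FPKM of the 9 tested genes in each library on a log axis, ordered by their mean in control; colour gives the group and symbol the replicate. TIPARP, AHR and ARNT lie highest in every group, and CYP1A1 moves from a mean of 0.603 in control to 2.98 with hOMF and 2.36 with CAF exosomes.

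The rest of the pathway was read from lists written by role, with paired values given for CAF exosomes first and hOMF exosomes second. Over all tested genes 9.51% and 11.8% were called higher and 8.64% and 11.4% lower, and the counts of each list stand beside these shares. Of 8 tested genes among 14 other targets ascribed to the receptor, 2 rose and 1 fell in each comparison, with medians of 0.22 (CAF) and 0.23 (hOMF). NQO1, a quinone reductase that both the receptor and NRF2 are known to induce, rose by 0.33 (SE 0.09, adjusted p = 0.0168) with CAF and by 0.32 (SE 0.09, adjusted p = 0.014) with hOMF exosomes. These calls were lost without control replicate 2, and that with hOMF exosomes also without hOMF exosome replicate 3. LRG1, a secreted glycoprotein gene, rose by 0.37 and 0.27, the latter lost without control replicate 1 or 2 or hOMF exosome replicate 1 or 2. STC2, a secreted glycoprotein of stress responses, fell by 0.37 and 0.66.

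Of the 14 genes of the receptor complex, its cofactors and the other partners of ARNT, all tested, 2 rose and 2 fell with CAF exosomes, and 2 rose and 3 fell with hOMF exosomes. In the fit without control replicate 3 it was 1 and 3 in each comparison. Of all tested genes 9.51% and 11.8% were called higher with all libraries, and 8.64% and 11.4% lower. ARNT2, the second ARNT-type partner, fell from 12 ± 0.762 CPM to 6.23 ± 0.96 with CAF exosomes (-0.94, SE 0.15, adjusted p = 0.000625) and to 7.53 ± 1.12 with hOMF exosomes (-0.67, SE 0.14, adjusted p = 0.00397). HSP90AA1, a subunit of the chaperone that holds the receptor, fell by 0.46 and 0.42, and HIF1A, which also pairs with ARNT, rose by 0.40 and 0.47 (SE 0.08 each). EPAS1, another partner of ARNT, went the other way, at -0.25 in both comparisons, and was called with hOMF exosomes only. Of 8 tested genes of tryptophan and kynurenine metabolism, a source of natural ligands, 2 fell and 0 rose in each comparison. With hOMF exosomes it was 2 and 2 with library totals without TMM factors, on the FPKM scales and without control replicate 1. KMO, which hydroxylates kynurenine, fell from 12 ± 1.27 CPM to 7.17 ± 0.692 with CAF exosomes and to 5.74 ± 0.902 with hOMF exosomes. KYNU, which cleaves kynurenine, fell by 0.30 and 0.40, and the call with CAF exosomes was lost without CAF exosome replicate 3.

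Of 47 other P450 genes 12 could be tested, and 2 rose and 0 fell in each comparison, with medians of 0.26 (CAF) and 0.21 (hOMF). Of all tested genes 9.51% and 11.8% were called higher and 8.64% and 11.4% lower. CYP39A1, an oxysterol hydroxylase, rose by 0.70 and 0.77, and CYP2U1, a fatty acid hydroxylase, by 0.71 and 0.65. The calls of CYP2U1 were lost without control replicate 3 (adjusted p = 0.0512 and 0.0625), and without control replicate 2 that of CYP39A1 with CAF exosomes. CYP2U1 with hOMF exosomes was also lost without hOMF exosome replicate 1 or 2. Of 24 tested genes of other oxidising and hydrolysing enzymes, 8 rose and 2 fell with CAF exosomes, and 9 rose and 1 fell with hOMF exosomes, with medians of 0.13 and 0.26. Leaving out control replicate 3 gave 6 and 1, and 9 and 0. With CAF exosomes the count was 4 up and 2 down without control replicate 1. It was 5 up and 1 down without control replicate 2 or CAF exosome replicate 3. CES3, a carboxylesterase, rose by 1.08 (SE 0.14) and 0.83 (SE 0.15). The aldehyde dehydrogenase genes ALDH3B2 and ALDH3B1, relatives of ALDH3A1, rose by 0.54 and 0.34 with CAF and by 0.51 and 0.58 with hOMF exosomes. The call of ALDH3B1 with CAF exosomes was lost without control replicate 1 or 3 or CAF exosome replicate 2 or 3.

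The 25 tested genes of conjugating enzymes and efflux pumps had medians of 0.18 and 0.16. Of these, 4 rose with CAF and 5 with hOMF exosomes and 0 fell, where 9.51% and 11.8% of all tested genes were called higher. Leaving out control replicate 3 gave 2 and 5. With CAF exosomes it was also 2 with DESeq2 and without control replicate 1 or CAF exosome replicate 3, and with hOMF exosomes it was 8 with library totals without TMM factors. GSTT2B, a glutathione transferase with a near-identical copy, rose by 1.06 and 1.18, and GSTM4, another, rose by 0.50 with hOMF exosomes and stood at 0.27 (adjusted p = 0.0903) with CAF exosomes. SULT1A1, a sulfotransferase, rose by 0.46 and 0.50, but none of its 9 counts was whole, so it rests in part on reads shared with its relatives and is uncertain. Among list genes, whole counts were checked only for those named for the smallest p. Of these, counts were whole in 1 of 9 libraries for KYNU and in 3 for LRG1, ALDH3B1 and SLC7A11. They were whole in 4 for CES3, in 6 for ALDH3B2 and in 8 for NQO1, and all of these carry the same limit. Further list genes named in the text, among them EPAS1, TXNRD1, HMOX1, SRXN1, EPHX2, AOX1 and MAOA, were not checked. The call of SULT1A1 with CAF exosomes was lost without control replicate 3 or CAF exosome replicate 3. Of 12 NRF2 targets, genes of the antioxidant response that share NQO1 with the receptor, 4 rose and 3 fell with CAF exosomes, and 4 rose and 1 fell with hOMF exosomes. The largest rises were those of ME1 (0.71 and 0.87) and SLC7A11 (0.87 and 0.77), and the list medians were 0.01 and 0.05. TXNRD1 fell in both comparisons (-0.34 and -0.37). HMOX1 (-0.36 and -0.21) and SRXN1 (-0.34 and -0.20) were called lower with CAF exosomes only. Leaving out control replicate 3 gave 3 up and 3 down, and 3 up and 2 down. Without CAF exosome replicate 3 it was 3 up and 1 down with CAF exosomes.

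**Figure D5:**
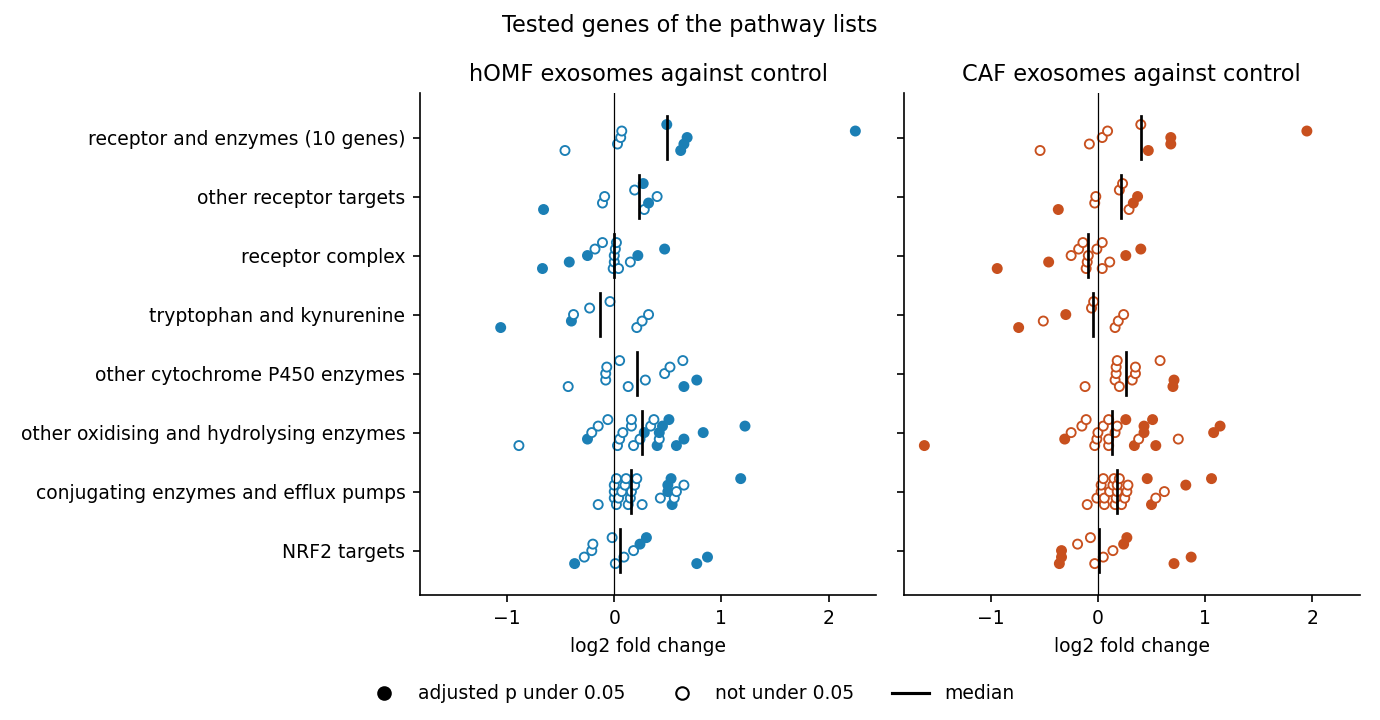
Log2 fold change of every tested gene of the 10 members and of 7 lists by role, for hOMF exosomes (left) and CAF exosomes (right) against control; filled points had an adjusted p under 0.05 and black bars are list medians. The medians of the members are 0.49 and 0.40, those of the 7 lists drawn lie between -0.14 and 0.26, and CYP1A1 is the point farthest to the right. The marker lists are not drawn, and the medians were 0.17 and 0.38 for squamous and 0.48 and 0.34 for fibroblast markers.

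Of 13 tested squamous markers 7 rose with CAF exosomes, where 9.51% of all genes were called higher, and 3 rose with hOMF exosomes, where 11.8% were. They were led by KRT5 and KRT14, which encode keratins of basal keratinocytes (0.72 and 1.14 with CAF, 0.51 and 0.57 with hOMF exosomes). The markers TP63, EPCAM, CDH1 and DSP were not called and lay between -0.06 and 0.14, and KRT6B, a keratin gene, was at 0.01 and -0.32, not called. None of the 9 counts of KRT5 was whole, so it too rests in part on shared reads. Leaving out control replicate 3 gave 4 and 1, against 5.91% and 7.94% of all genes, and KRT14 with hOMF exosomes was then at 0.35 (adjusted p = 0.167). This call was also lost without control replicate 2, hOMF exosome replicate 1 or 2 or CAF exosome replicate 3, and in a fit of the 2 groups alone. EGFR, at 0.38 and 0.34, was no longer called without control replicate 3 (adjusted p = 0.0995 and 0.133). Its call was also lost without control replicate 2 or CAF exosome replicate 3 in both comparisons, without CAF exosome replicate 1 in the first, and without any 1 hOMF exosome library in the second. The count with CAF exosomes was 3 without control replicate 2 or CAF exosome replicate 3, and that with hOMF exosomes ranged from 1 to 6 over the fits without 1 library. The medians were 0.38 and 0.17 for the squamous markers and 0.34 and 0.48 for the 6 tested fibroblast markers, near those of the members in part. The part of the squamous markers in the members' changes was not tested. Of 3 tested endothelial markers, CDH5 fell by 0.69 and 0.66, while PECAM1 (-1.07 and -0.62) and VWF (0.73 and 0.70) were not called and lay in opposite directions.

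The log2 CPM of CYP1A1 was compared with that of 11337 genes over the 9 libraries. Genes with LOC or open reading frame names were passed over in the naming but count in the ranks. The 5 closest of the rest were NTF4 (Pearson r = 0.994), SLC25A27 (0.989), FGFBP1 (0.988), B3GALT4 (0.987) and CLMN (0.985). These values describe likeness only, since all points share the same libraries and the step from control to exosomes. NTF4, a neurotrophin gene, stood at 11.6 ± 1.61 CPM in control, 27.2 ± 1.13 with hOMF and 22.1 ± 2.09 with CAF exosomes (SD, n = 3). FGFBP1, which encodes a carrier of fibroblast growth factors made by squamous cells, stood at 75.9 ± 8.90, 117.7 ± 3.29 and 111.9 ± 5.53 CPM. Of the members, CYP4F11 was nearest to CYP1A1 (r = 0.952, rank 97), followed by CYP1B1 (0.878, rank 576), CYP2S1 (0.834, rank 902) and ALDH3A1 (0.829, rank 945). ARNT (0.384), TIPARP (0.297) and AHR (0.05) ranked 3699, 4136 and 5338. AHRR, highest in control replicate 3, was at -0.325 and ranked 7209.

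In GENCODE release 29 on GRCh38, CYP1A1 lies on chromosome 15 from 74719542 to 74725610 and CYP1B1 on chromosome 2 from 38066973 to 38109902, both on the minus strand. CYP4F11 (15912367 to 15934867, minus strand), CYP4F3 (15640897 to 15662825, plus strand) and CYP2S1 (41193049 to 41207539, plus strand) are on chromosome 19, and ALDH3A1 (19737984 to 19748943, minus strand) is on chromosome 17. AHR (16916359 to 17346152) lies on chromosome 7, AHRR (304176 to 438291) on chromosome 5 and TIPARP (156673235 to 156706770) on chromosome 3, each on the plus strand, and ARNT (150809705 to 150876768) on the minus strand of chromosome 1. Every one of the 10 is annotated as a protein-coding gene. CYP1B1 shares 678 exon bases with CYP1B1-AS1 and 96 with RMDN2, both on the opposite strand, and 69 with RMDN2-AS1 on its own strand, and ALDH3A1 shares 98 with an antisense transcript. AHR shares 2373 exon bases with AC019117.2 on the same strand. Whether counting used strand is unknown here, and the counts alone do not show how reads within the shared bases were assigned. As stated above, the counts of all 10 genes were whole in all 9 libraries.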

How the data were processed

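Per the labels' protocols, oligo(dT)-selected RNA of Cal-27 cells was sequenced as paired reads from strand-specific libraries (dUTP). The authors deposited 1 table with expected counts, FPKM and TPM per library, per the file headers; TPM and the authors' group means were not used, and 0 columns of values lacked a sample. The submitters' processing notes name RSEM 1.2.8, Bowtie2 2.2.5 and a mouse build, although symbols and NCBI identifiers are human. The build used for counting is therefore unclear, and coordinates come from GENCODE and RefSeq only.

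Expected counts were rounded, genes kept by filterByExpr (minimum count 10, minimum total 15), libraries scaled by TMM, and 3 comparisons taken from 1 quasi-likelihood fit (edgeR 4.0.16, two-sided, 6 residual degrees of freedom) with group as the only term and Benjamini-Hochberg adjustment over all 12470 genes. SE is the log2 change divided by the square root of F. The fit was tested on simulated data. The same settings were varied with limma 3.58.1, DESeq2 1.42.0 and R 4.3.3; figures used matplotlib 3.10.9. The text names all members, up to 2 called genes with the smallest p per list and comparison, and the 5 genes nearest CYP1A1 (log2(CPM + 0.5), mean FPKM of at least 1). For these 5, LOC and open reading frame names were passed over. Some further list genes that were flat or went the other way are named too. Members and lists were chosen with earlier results of these data known. CYP4F8 and CYP4F22, though in the naming rule, are not analysed here.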

Additional observations from a re-analysis of the deposited data

How the results depend on the processing

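The members' counts of calls, 4 with CAF exosomes, 5 with hOMF exosomes and 0 between them, were the same with library totals without TMM factors, DESeq2, limma-voom, limma on log2(FPKM + 1) or log2(FPKM + 0.1), no filter, a mean FPKM of at least 1 and only the 2 groups compared. Leaving out 1 library gave 4 to 4, 3 to 5 and 0 to 0 calls; the 3 came without control replicate 2 or hOMF exosome replicate 1. The fit with the replicate number as a block called 4, 5 and 0. Deviations of same-numbered libraries correlated between -0.154 and 0.14 over 9 pairs, and of others between -0.143 and 0.181 over 18, so the numbers are not taken as pairs. CYP1A1, CYP1B1 and CYP4F11 kept their calls against control under every alternative run, CYP1A1 between 1.07 and 2.26 with CAF exosomes and between 1.32 and 2.56 with hOMF exosomes. Its lowest values, on the log2(FPKM + 1) scale, are lower by construction for a gene of low level. Summing CYP1A1 with CYP1A2, or CYP4F11 with CYP4F2, CYP4F3 and CYP4F12, changed no call. Without 1 library, AHRR ranged from -0.82 to 0.34 with CAF and from -0.76 to 0.41 with hOMF exosomes, the higher values without control replicate 3, none of them called. Other uncalled values also changed sign over these fits: AHR (-0.15 to 0.01) and ARNT (-0.02 to 0.09) with CAF exosomes, TIPARP with hOMF exosomes (-0.04 to 0.12, with -0.02 without hOMF exosome replicate 3), and between the exosome groups ARNT (-0.10 to 0.01) and TIPARP (-0.02 to 0.13). All genes called fell from 2264 to 1442 with CAF and from 2896 to 2014 with hOMF exosomes without control replicate 3. Depth limits CYP1A1, with 13 to 22 counts per control library, and CYP4F3 most.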

Other observations

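Among the other oxidising and hydrolysing enzymes, 3 further genes are named here after their values were seen. EPHX2, the soluble epoxide hydrolase that opens epoxides of fatty acids, stood at 0.636, 0.903 and 1.04 CPM in control, at 1.65, 2.45 and 1.99 CPM with hOMF exosomes and at 1.87, 2.04 and 1.84 CPM with CAF exosomes, with no overlap. It rose by 1.22 with hOMF exosomes (SE 0.30, adjusted p = 0.00848) and by 1.14 with CAF exosomes (SE 0.30, adjusted p = 0.0167). AOX1, aldehyde oxidase, stood at 2.36, 2.71 and 2.15 CPM in control and at 0.713, 0.766 and 0.835 CPM with CAF exosomes, a change of -1.62 (SE 0.41, adjusted p = 0.0126). With hOMF exosomes it was at 0.954, 0.525 and 2.29 CPM, where replicate 3 lay within the control range, and the value of -0.89 (adjusted p = 0.091) was not called. Without control replicate 3 the calls of EPHX2 (adjusted p = 0.0151 with hOMF and 0.0283 with CAF exosomes) and of AOX1 with CAF exosomes (adjusted p = 0.0226) held. That of EPHX2 was lost with DESeq2 or without control replicate 1 for CAF exosomes, and without hOMF exosome replicate 2 for hOMF exosomes. MAOA, a monoamine oxidase, stood at 9.64, 8.13 and 9.41 CPM in control and at 12.7, 15 and 15.1 CPM with hOMF exosomes, a rise of 0.65 (SE 0.13, adjusted p = 0.00194) that held under all 18 alternatives run. With CAF exosomes it stood at 10.3, 12.3 and 12.7 CPM (0.38, adjusted p = 0.0546) and was not called.

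In control replicate 3 the xenobiotic and tryptophan lists held 2 further genes high in that library alone. MGST1, a microsomal glutathione transferase, was at 5.5 CPM there and between 0 and 0.26 CPM elsewhere. QPRT, an enzyme that makes NAD from a tryptophan product, was at 6.7 CPM there and between 0.0903 and 0.694 CPM elsewhere. Neither passed the filter on low counts. In the fit with no filter QPRT was called in neither comparison with control, and MGST1 was called lower with CAF exosomes only. Its list of conjugating enzymes and efflux pumps then stood at 3 up and 1 down with CAF exosomes, against 4 up and 0 down. MGST1 is the gene down, and the call up that was lost belongs to another gene of the list. The difference between the exosome groups was not called for MGST1.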
